A study of Rattus norvegicus with 6 samples.

Results

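The collagens are the main structural proteins of the extracellular matrix. In the 6 arrays of this series, the collagen genes were taken as every probe, control features apart, whose array gene name is Col, a number, a and a number once the endings _predicted or _mapped are removed. This gave 52 probes for 32 genes, of 41012 probes with 35561 names on the array. By family, 20 probes stand for 10 fibrillar collagens, 6 probes for 4 chains of type IV, the collagen of basement membranes, and 26 probes for 18 other collagens.

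Hippocampal RNA of male Wistar rats that were 11 weeks old at the start was compared on 6 two-colour microarrays. Rats of the control group (CONT) rested on the treadmill, rats of the mild exercise group (ME) ran at 15 m/min, below the lactate threshold, and rats of the intense exercise group (IE) ran at 40 m/min, above it. Both running groups trained for 60 min/day, 5 times/week, over 6 weeks, with slight electric shocks in habituation, which lasted longer for IE, and further shocks for some IE rats. RNA of 5 rats was pooled in each group, and each of the 3 possible pairs of groups was put on 2 arrays, the second with exchanged dyes. By the methods, both arrays of such a dye swap carried the same RNA, although the sample records name 2 pools, so a comparison is 1 replicate and differences among rats could not be tested. The records give collection at 24 or 36 h, and the methods give a later time. The 4 arrays against CONT are taken here as a first slide, and those of IE against ME as a second slide. The file headers name different versions of the extraction software for these sets of arrays.

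Fibrillar collagens (types I, II, III, V, XI and XXVII here) are secreted as procollagens, are trimmed at both ends and then assemble into the fibres of connective tissue. Types I and III build most of these fibres, and types V and XI are minor chains found inside the same fibres. Type IV forms the sheet-like network under endothelium and around vessels. In the brain, the parenchyma holds little fibrillar collagen, whereas the meninges and the walls of larger vessels contain it, so that fibroblast-like and mural cells are the cells known for making it there.

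Of the 4 collagen probes called in these data, those of Col3a1 and Col1a2 (A_44_P458851) are shown, with 3 probes of Col1a1 and Col5a2 that were not called, each 60 bases long, because related collagens could share a probe's target. They fall in the same region, the C-propeptide that is cut off outside the cell. Capitals mark the longest run of bases that each probe shares with the Col3a1 probe, and in the Col3a1 probe the run it shares with that of Col5a2. All coordinates are those of rn3 in the files of the arrays against CONT, while the file headers of IE vs ME name rn4.
Col3a1 (A_44_P146518, chr9:44318879-44318938, plus strand): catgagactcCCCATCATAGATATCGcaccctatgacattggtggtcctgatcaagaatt
Col5a2 (A_44_P392849, chr9:44376974-44377033, minus strand): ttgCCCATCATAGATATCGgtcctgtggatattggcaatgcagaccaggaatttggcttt
Col1a1 (A_44_P419137, chr10:83652273-83652332, plus strand): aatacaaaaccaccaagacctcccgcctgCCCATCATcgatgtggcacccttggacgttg
Col1a1 (A_44_P350521, chr10:83652326-83652385, plus strand): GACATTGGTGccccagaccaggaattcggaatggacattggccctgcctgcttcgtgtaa
Col1a2 (A_44_P458851, chr4:29463744-29463803, plus strand): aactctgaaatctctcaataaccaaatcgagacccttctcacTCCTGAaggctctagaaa
The Col3a1 and Col5a2 probes shared a run of 16 bases and were identical at 37 of 53 positions in their best ungapped alignment. No longer run was found between probes of different collagens, and 1 other pair, of Col4a5 and Col2a1, had a run of this length. Probes were compared with each other and not with whole transcripts, so whether a probe binds RNA of another collagen was not tested. The second Col1a1 probe ends with the stop codon taa. The probes of Col3a1 and Col5a2 start 58.0 kb apart on chromosome 9, on opposite strands.

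A ratio is given as log2, on each of the 2 arrays and as their mean ± the SD between them. To be called, a probe needed a Cy5/Cy3 of 1.5 or more on 1 array and of 0.75 or less on the swapped one, or the reverse, and a p value of the software below 0.01 on both. This p compares 2 pools on 1 array, not 2 groups of rats. On each array, the software marked 66.5% to 74.4% of all spots as well above background for both dyes, 0 spots were saturated, and none of the collagen spots (0 of 52 on each array) was an outlier. All readings of all 6 arrays were well above background for 32 collagen probes of 21 genes. Another 5 probes, for Col11a1 (both A_44_P123636 and A_44_P272045), Col12a1 (A_44_P473153), Col14a1 (A_44_P171271) and Col17a1, had no reading well above background on any array. The remaining 15 probes passed in some readings. With 2 arrays a comparison, precision is limited by their number.

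**Figure D1:**
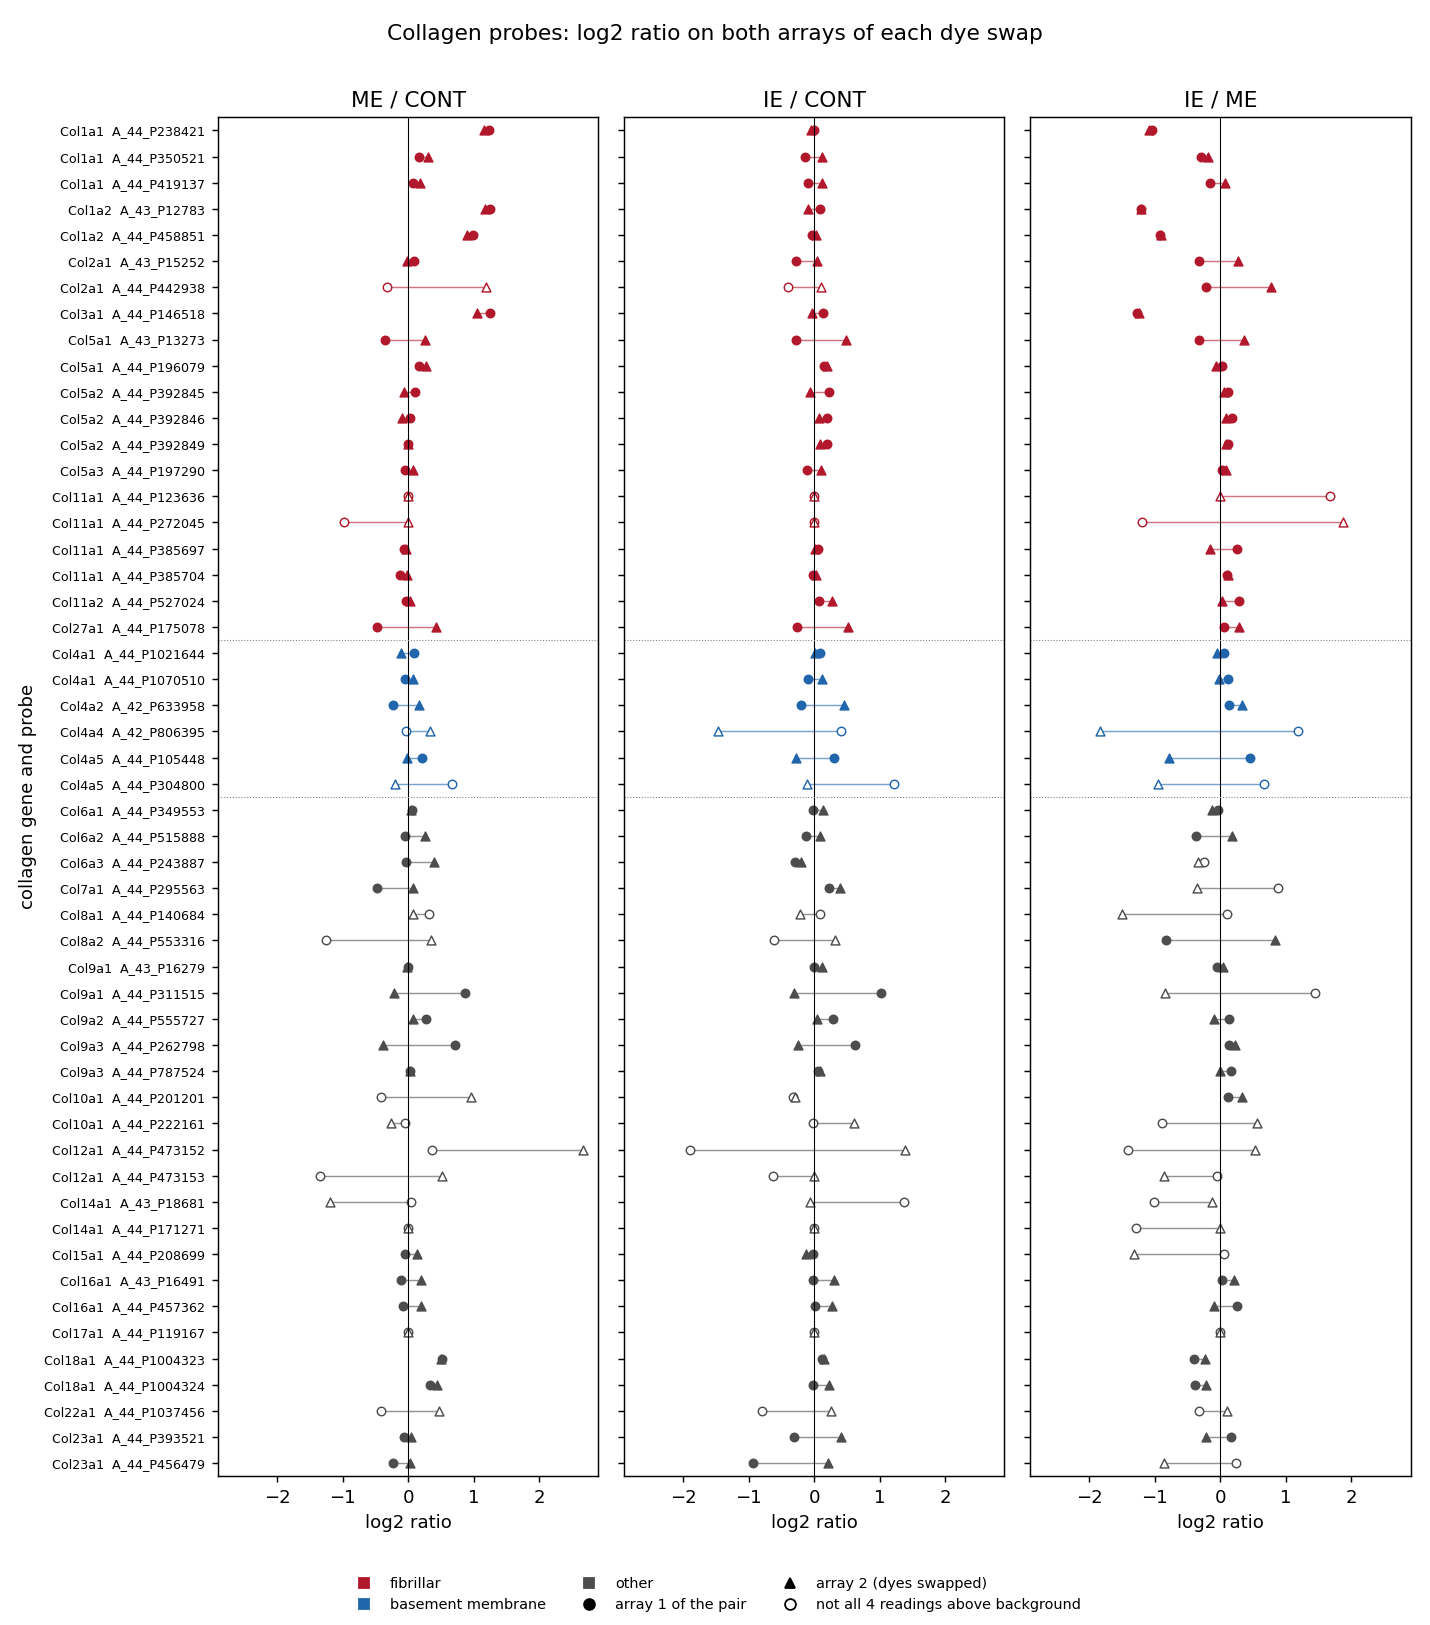
Log2 ratio (x axis) of each of the 52 collagen probes (y axis) on both arrays of each dye swap, for ME / CONT, IE / CONT and IE / ME. Circles are the first and triangles the second array, a line joins them, and open symbols mark probes without all 4 readings of the pair well above background. With ME, 4 fibrillar probes lie between 0.89 and 1.25 on both arrays, near 0 with IE, and between -1.28 and -0.91 in IE / ME.

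Types I and III rose with ME at 4 of their 6 probes, and none of their probes (0 of 6) was called with IE. For Col1a2, the second chain of type I collagen, probe A_43_P12783 read 2023 and 1932 in ME against 852 and 855 in CONT, in arbitrary signal units after the software's background subtraction and dye normalization. On the IE vs CONT arrays, the same probe read 844 and 835 in IE against 796 and 894 in CONT. The ME signals lay above every CONT and IE signal on the slide, and the CONT and IE signals overlapped. Its log2 ratio was 1.25 and 1.18 with ME (1.21 ± 0.051, a 2.32-fold change) and 0.09 and -0.10 with IE.

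Col1a1, which codes for the major chain of type I collagen, had the same order at probe A_44_P238421. The signal was 1658 and 1524 in ME against 707 and 682 in CONT, and 711 and 634 in IE against 711 and 655 in CONT. The log2 ratio was 1.23 and 1.16 with ME (1.19 ± 0.048, 2.29-fold), and 0.00 and -0.05 with IE. Again no ME signal overlapped with the others, while IE and CONT did overlap.

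For Col3a1, the single chain of type III collagen, ME read 405 and 380 against 170 and 184 in CONT, and IE read 180 and 178 against 165 and 181. Its log2 ratio was 1.25 and 1.05 with ME (1.15 ± 0.14, 2.22-fold) and 0.13 and -0.03 with IE. The ME pool stood apart here too, and its neighbour Col5a2, whose probe shares the run printed above, was not called. The second Col1a2 probe, A_44_P458851, which starts 2905 bases before the first, read 249 and 260 in ME against 125 and 140 in CONT, giving 0.99 and 0.89 (0.94 ± 0.069, 1.92-fold). With IE it gave -0.04 and 0.03, so that both probes of Col1a2 were high in the ME pool alone.

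These 4 probes of 3 genes were the collagen probes called with ME, and 0 collagen probes were called lower. Over all 40922 probes with a ratio, 0.11% were called higher and 0.0122% lower with ME. The software's p for the 4 probes ranged from 9.47e-08 to 5.69e-05. With IE, 0 of the 52 collagen probes were called in either direction, beside 0.0244% called higher and 0.00488% called lower of 40957 probes. Without the p threshold, the ratio limits were passed by the same 4 collagen probes with ME and by 0 with IE. Of all probes, these limits alone were passed by 0.547% (higher) and 0.44% (lower) with ME, and by 0.303% and 0.364% with IE. In bulk RNA, more cells of a type and more RNA per cell cannot be told apart. Meningeal markers are given with the other cell types, in a list chosen with earlier results known. Its median was 0.85 with ME and -0.03 with IE.

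The direct comparison of both running groups, on the other slide, called the same 4 probes lower in IE than in ME, and 0 collagen probes higher, with or without the p threshold. Of 41009 probes, 0.061% were called lower and 0.0122% higher, or 0.88% and 0.18% by the ratio limits alone. Col1a2 (A_43_P12783) read 678 and 715 in IE against 1565 and 1662 in ME, a log2 ratio of -1.21 and -1.22. Col3a1 read 126 and 135 against 306 and 318, a ratio of -1.28 and -1.24. Both genes were lower in IE on each array, by more than the spread between arrays. Col1a1 (A_44_P238421) read 368 on both arrays in IE against 762 and 782 in ME, with -1.05 and -1.09. The second Col1a2 probe gave -0.92 and -0.91.

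The 3 comparisons are taken to share the CONT, ME and IE pools, so they are not independent of each other, and the ratios can be set side by side. The IE / CONT ratio minus the ME / CONT ratio was -1.22 for Col1a1 (A_44_P238421), -1.22 and -0.95 for the 2 Col1a2 probes, and -1.10 for Col3a1. The IE / ME arrays gave means of -1.07, -1.21, -0.91 and -1.26 for the same probes. The arrays of the other slide thus returned a like difference for each.

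**Figure D2:**
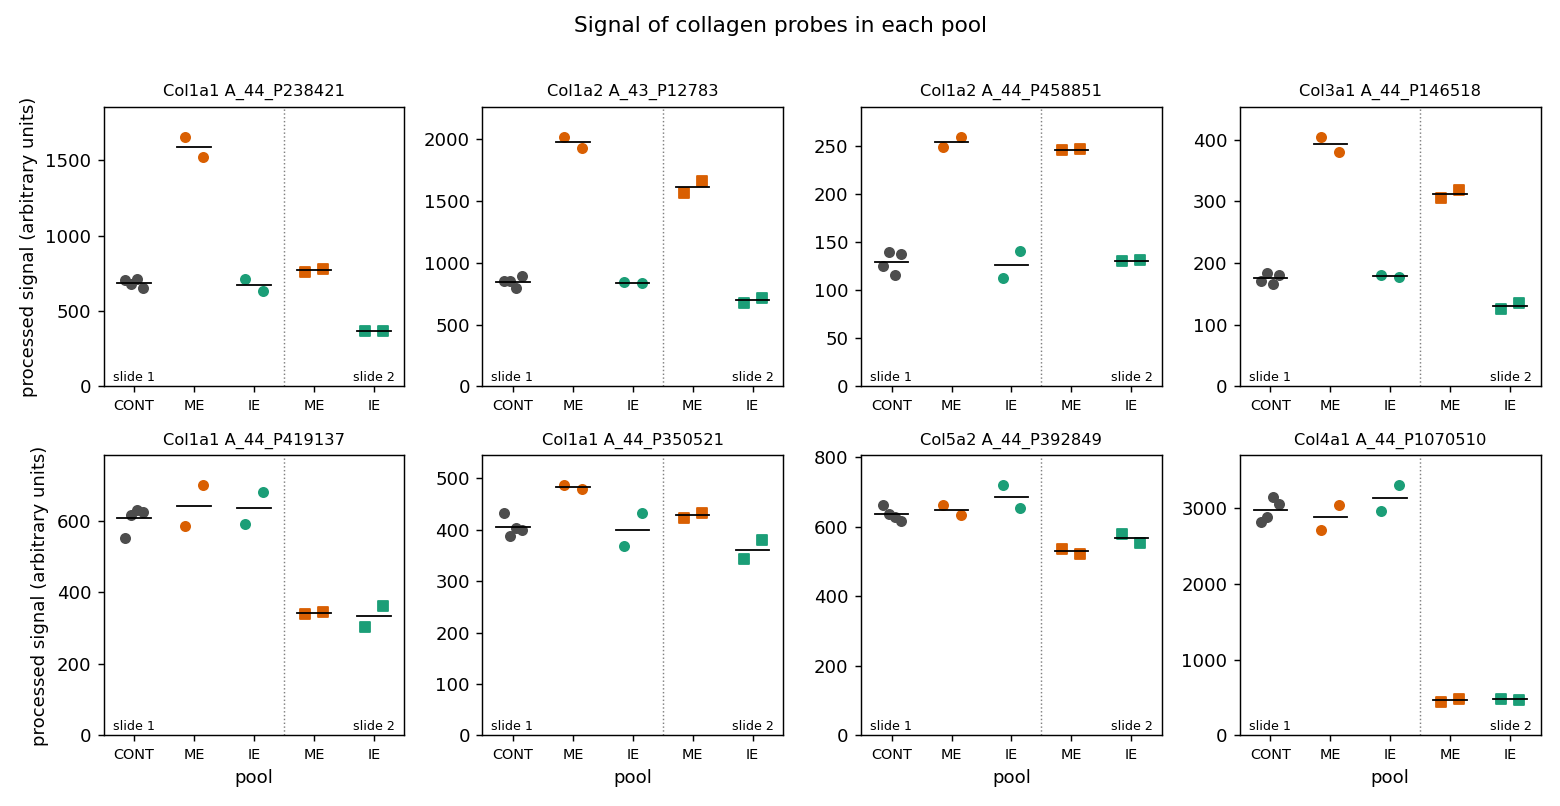
Processed signal (y axis, arbitrary units, linear from 0) of 8 collagen probes in each pool (x axis), with 1 point per array channel, horizontal bars at the mean, circles for the slide against CONT and squares for the IE vs ME slide. In the upper row (Col1a1 A_44_P238421, both Col1a2 probes and Col3a1) the ME points stand above the CONT and IE points; in the lower row (2 further Col1a1 probes, Col5a2 and Col4a1) the pools lie nearer to each other, with ME above the other pools at Col1a1 A_44_P350521 and IE above ME at Col5a2 on the IE vs ME slide. Signals were extracted with different software versions for these sets of arrays, so they are not comparable between them.

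The 3 probes of Col1a1 did not give the same ratio. Probe A_44_P238421 lies after the stop codon, with 161 bases of chromosome between them (chr10:83652547-83652606). The other probes, A_44_P419137 and A_44_P350521, lie within the coding sequence printed above and overlap by 7 bases. With ME they gave 0.08 and 0.18 (0.13 ± 0.071) and 0.17 and 0.31 (0.24 ± 0.098), above 0 on both arrays but not called, with software p values from 0.137 to 0.697. In IE / ME they gave -0.16 and 0.07, and -0.30 and -0.19. At A_44_P350521 the ME signals (479 to 486) lay above those of CONT (388 to 433) and IE (368 to 433), and on the other slide ME (423 to 433) lay above IE (343 to 380), so that ME overlapped with neither pool although the probe was not called. At A_44_P419137 ME overlapped with both other pools. All 3 probes were well above background in every reading. The type I result therefore rests on 2 probes of Col1a2 and on the Col1a1 probe after the stop codon, and the coding probes of Col1a1 give a change of 1.09-fold and 1.18-fold in place of 2.29-fold. What makes these probes differ was not tested.

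**Figure D3:**
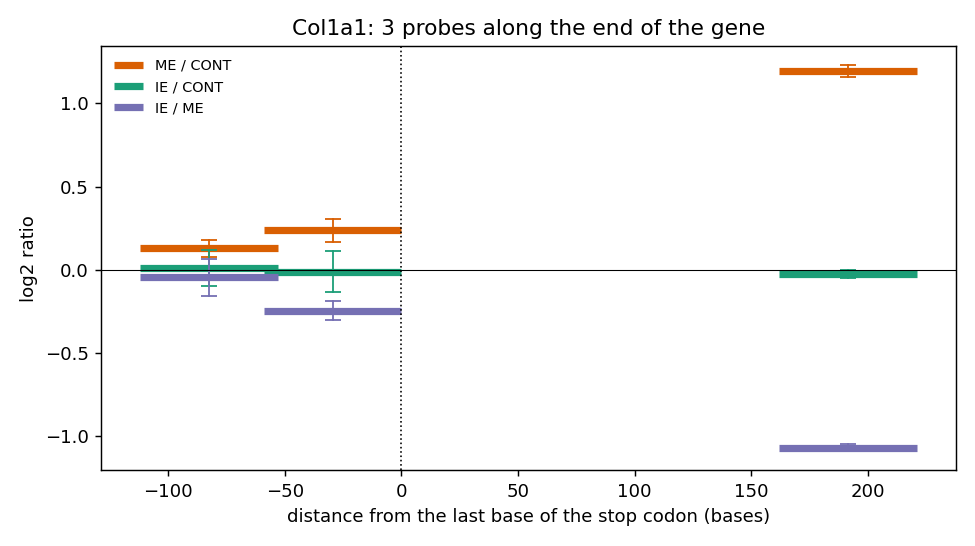
Log2 ratio (y axis) of the 3 Col1a1 probes against their distance in bases from the last base of the stop codon (x axis). Thick bars span the 60 bases of a probe at the mean of 2 arrays, thin lines join the values of the 2 arrays. Both probes before the stop codon lie at 0.13 and 0.24 in ME / CONT, the probe after it at 1.19; in IE / ME they lie at -0.05, -0.25 and -1.07.

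The other fibrillar collagens had no called probe in any comparison, and of all probes at most 0.11% were called in either direction. Of their 14 probes, 11 were well above background in all 4 readings with ME, and these had mean log2 ratios from -0.07 to 0.22. Col5a2, whose product joins type I fibres as a minor chain, had 3 probes, whose means with ME were 0.01, -0.03 and 0.00, and whose means with IE were 0.08, 0.13 and 0.14. Col5a1, the main chain of type V, gave -0.35 and 0.25 at one probe and 0.17 and 0.27 at the other with ME. Only the second of these was on the same side of 0 on both arrays. Col5a3 gave -0.05 and 0.08, and Col11a2 gave -0.03 and 0.03. For Col11a1, a type XI chain, the 2 probes above background had means of -0.05 and -0.07 in ME / CONT and of 0.03 and 0.00 in IE / CONT. Col2a1, the collagen of cartilage, gave 0.09 and -0.02 at its probe above background. Col27a1 was on opposite sides of 0 on the arrays with ME (-0.47 and 0.43), so that the sign changed with the dye.

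In IE / ME, the same 14 probes had a median of 0.10, and 12 of them were well above background, from -0.02 to 0.28. Of these 12, 7 were higher and 0 lower on both arrays, beside 14.5% and 12.1% of all such probes. With IE, 5 of 11 were higher and 0 lower, beside 14.6% and 13.6%. With ME, 1 of 11 was higher and 3 were lower, beside 13.6% and 15%. Several of these probes belong to 1 gene. Types I and III were set apart from the other fibrillar collagens after their values had been seen, and for their 6 probes the median was 1.05 in ME / CONT, -0.01 in IE / CONT and -0.99 in IE / ME. Over all 20 fibrillar probes, the median was 0.01 in ME / CONT, 0.01 in IE / CONT and 0.05 in IE / ME, beside medians of 0.00 over all probes in each comparison. Most fibrillar probes thus lay near 0.

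Type IV collagen had 0 of 6 probes called in any comparison, near the share of all probes, of which at most 0.11% were called in either direction. Col4a1, a chain of the common type IV network, gave 0.09 and -0.11 at one probe and -0.05 and 0.08 at the other with ME, and means of 0.04 and 0.01 with IE. Its partner chain Col4a2 gave -0.24 and 0.17 with ME and -0.21 and 0.45 with IE. In IE / ME it gave 0.13 and 0.33. Col4a5, a chain of kidney and other specialised basement membranes, gave 0.20 and -0.02 with ME at the probe above background, and the Col4a4 probe and the other Col4a5 probe were not well above background in all readings. The median over the 6 probes was 0.05 in ME / CONT, 0.03 in IE / CONT and -0.07 in IE / ME, all nearer to 0 than those of types I and III with ME and in IE / ME. With ME, 0 of the 4 type IV probes above background were on the same side of 0 on both arrays.

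Among the other collagens, Col18a1 had the largest mean with ME at probes well above background. It codes for a proteoglycan of vascular basement membranes whose end is released as endostatin. Its 2 probes overlap by 37 bases and are not independent. They gave 0.52 and 0.49 (0.50 ± 0.016) and 0.33 and 0.44 (0.38 ± 0.080) with ME, 0.11 and 0.15, and -0.03 and 0.22 with IE, and -0.41 and -0.23, and -0.39 and -0.22 in IE / ME. The signal of A_44_P1004323 was 272 to 282 in ME against 190 to 200 in CONT and 208 to 218 in IE on that slide. ME did not overlap with CONT or IE, but neither probe passed the ratio limits, and the smallest p with ME was 0.0143.

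Type VI, the beaded filament collagen of many tissues, gave mean ratios of 0.05 (Col6a1), 0.10 (Col6a2) and 0.18 (Col6a3) with ME, and 0 of these 3 probes were called. The type IX chains, which decorate cartilage fibres, gave means from -0.01 to 0.32 with ME over 5 probes. Col9a2 gave 0.27 and 0.07, on the same side of 0. Col9a1 (A_44_P311515, 0.87 and -0.22) and Col9a3 (A_44_P262798, 0.71 and -0.39) had opposite signs on the 2 arrays, as they also did with IE (1.01 and -0.32, 0.62 and -0.24). Col16a1 had means of 0.04 and 0.06 with ME at its 2 probes. Each had opposite signs on the arrays (-0.11 and 0.19, -0.08 and 0.20). Col15a1, a basement membrane collagen related to Col18a1, gave -0.06 and 0.13. The mean of Col12a1 (A_44_P473152) was 1.52 with ME, but the arrays gave 0.36 and 2.67 and no reading of these arrays was well above background. Col7a1, Col8a1, Col8a2, Col10a1, Col14a1, Col17a1, Col22a1 and Col23a1 had no called probe either, and only Col7a1 and Col23a1 among them were above background in all readings of ME vs CONT.

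Among probes well above background in all 4 readings of a comparison, 12 of 37 collagen probes were higher on both ME arrays and 4 were lower, beside 13.6% and 15% of all such probes. With IE, 11 of 37 were higher and 3 lower on both arrays, beside 14.6% and 13.6%. In IE / ME, 11 of 35 were higher and 8 lower, beside 14.5% and 12.1%. Several of these probes belong to 1 gene or overlap, and the largest mean counted here with IE was 0.31, for Col7a1. The 12 probes with ME were those of Col1a1, Col1a2, Col3a1 and Col18a1, with 1 each of Col5a1, Col6a1, Col9a2 and Col9a3.

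The genes that make, crosslink, bind or break down collagen had 1 probe called with ME and 0 with IE or in IE / ME. Of all probes, 0.11% were called higher and 0.0122% lower with ME, and 0.0244% and 0.00488% with IE. In IE / ME these shares were 0.0122% and 0.061%. Of 26 genes for processing and crosslinking, 23 were on the array with 33 probes. Only Pcolce, the enhancer of the protease that cuts off the C-propeptide, was called with ME, at 0.68 and 0.70. It gave -0.03 and -0.10 with IE and -0.80 and -0.55 in IE / ME, where it was not called. Serpinh1, the collagen chaperone, gave -0.10 and 0.18 with ME, and P4ha1, a prolyl hydroxylase subunit, gave -0.06 and -0.07. Lox, which crosslinks fibres, gave 0.28 and 0.33 at one probe and -0.24 and 0.27 at the other. The list's median was 0.02 in ME / CONT, 0.02 in IE / CONT and 0.03 in IE / ME.

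No probe was called in any comparison among the collagen receptors (7 of 10 genes on the array, 9 probes), the proteases and inhibitors of collagen breakdown (9 of 11 genes, 10 probes) or the laminins, nidogens and agrin of basement membranes (12 of 15 genes, 26 probes). Of all probes, at most 0.11% were called in either direction, so no call in lists of this size is near that share. With ME the medians of these lists were 0.05, 0.09 and 0.08, and in IE / ME they were -0.01, -0.02 and -0.06. Of 17 basement membrane probes well above background in IE / ME, 8 were lower and 2 higher on both arrays. Of all such probes, 12.1% were lower and 14.5% higher. Nid2, a nidogen, passed the ratio limits in IE / ME without the p threshold (-0.54 and -0.74). It gave 0.47 and 0.24 with ME, and 0.17 and 0.00 with IE.

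Markers of cell types that the dissected tissue could hold are given beside the collagens. The meningeal list, which was chosen with earlier results of these data known, moved with types I and III. Its values are thus no independent test of the collagen result. Of its 17 genes, 12 were on the array, with 13 probes, all well above background with ME. In all, 9 probes of 8 genes were called higher with ME, beside 0.11% of all probes. These were for Ogn (both probes), Ptgds, Igf2, Aldh1a2, Igfbp2, Fmod, Slc6a13 and Crabp2. The 13 probes ranged from 0.07 to 1.34, with a median of 0.85. With IE, 0 were called and the median was -0.03. In IE / ME 7 were called lower, beside 0.061% of all probes, with a median of -0.67. The summed signal of its 12 probes above background throughout the slide was 36054 to 39154 in ME, 15538 to 16600 in CONT and 15138 to 15404 in IE. ME thus did not overlap with the other pools, as at the called probes of types I and III. Dcn and Lum, which fibroblasts of many tissues make, were above background and gave 0.09 and 0.24, and 0.05 and 0.08 with ME. With IE they gave -0.15 and -0.11, and -0.40 and -0.11. In IE / ME they gave -0.42 and -0.23, and -0.24 and -0.73, below 0 on each array, and neither was called. The list is not pure, since choroid plexus is also known to make Ptgds, Igf2 and Igfbp2, and all 13 probes were also above background in CONT. The part of meningeal tissue in the collagen result was not tested.

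Of the pericyte and smooth muscle list (10 of 11 genes, 12 probes), Myh11, a smooth muscle myosin, was called with ME at 1 probe (0.63 and 0.75), while its other probe gave 0.09 and 0.04. Tagln, an actin-binding protein of smooth muscle, gave 0.43 and 0.81 with ME (1.53-fold), -0.28 and 0.21 with IE, and -0.71 and -0.55 in IE / ME. Des, the muscle intermediate filament desmin, gave 0.44 and 0.71 with ME (1.49-fold), -0.08 and 0.01 with IE, and -0.71 and -0.36 in IE / ME. Tagln and Des, named after their values were seen, were not called. Both were above 0 on each ME array and below 0 on each IE / ME array, as were types I and III at their called probes. Of the list's 12 probes, all well above background, 5 were higher and 1 lower on both ME arrays, beside 13.6% and 15% of all such probes. In IE / ME, 4 were higher and 4 lower on both arrays, beside 14.5% and 12.1%. The list's median was 0.08 with ME and -0.03 with IE and in IE / ME, and its summed signal was 9889 to 10504 in ME, 8720 to 9546 in CONT and 9030 to 9075 in IE. Endothelial markers (12 of 12 genes, 18 probes) had 0 probes called in any comparison and medians of 0.00, -0.01 and -0.03. Choroid plexus markers (14 of 14 genes, 15 probes) had 3 probes called higher with ME (Kcnj13, Sostdc1 and Ttr) and 4 with IE (these and Otx2). In IE / ME, 2 were called higher (Sostdc1 and Ttr). Of all probes, 0.11%, 0.0244% and 0.0122% were called higher in these comparisons. Their summed signal was 6342 to 6931 in IE, 3265 to 3468 in ME and 2722 to 3338 in CONT, an order unlike that of types I and III. Of the cerebellar list (7 of 9 genes, 7 probes), Gabra6 was called with ME at 2.92 and 2.64, with 2 of 4 readings well above background. The list's median was 0.35 in ME / CONT, 0.02 in IE / CONT and -0.46 in IE / ME, the order that types I and III also had. Fat2 gave 1.54 and 1.70 with ME, with 1 of 4 readings well above background. Pcp2, a Purkinje cell gene, gave 0.41 and 0.21 with ME and -0.59 and -0.53 in IE / ME, and Car8 gave 0.27 and 0.81 with ME but -1.06 and 0.30 in IE / ME. None of these 3 probes was called. The summed signal of 4 cerebellar probes was 2091 to 2114 in ME, 1857 to 2025 in CONT and 1900 to 2007 in IE, so that ME did not overlap with the other pools. For each of these lists the part in the collagen result was not tested. Markers of hippocampal neurons (8 of 10 genes, 15 probes) were well above background in all readings against CONT, 0 were called, and the median was 0.01 with ME and 0.00 with IE. These neuronal markers were thus detected in each pool, which does not measure how much other tissue the pools held.

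**Figure D4:**
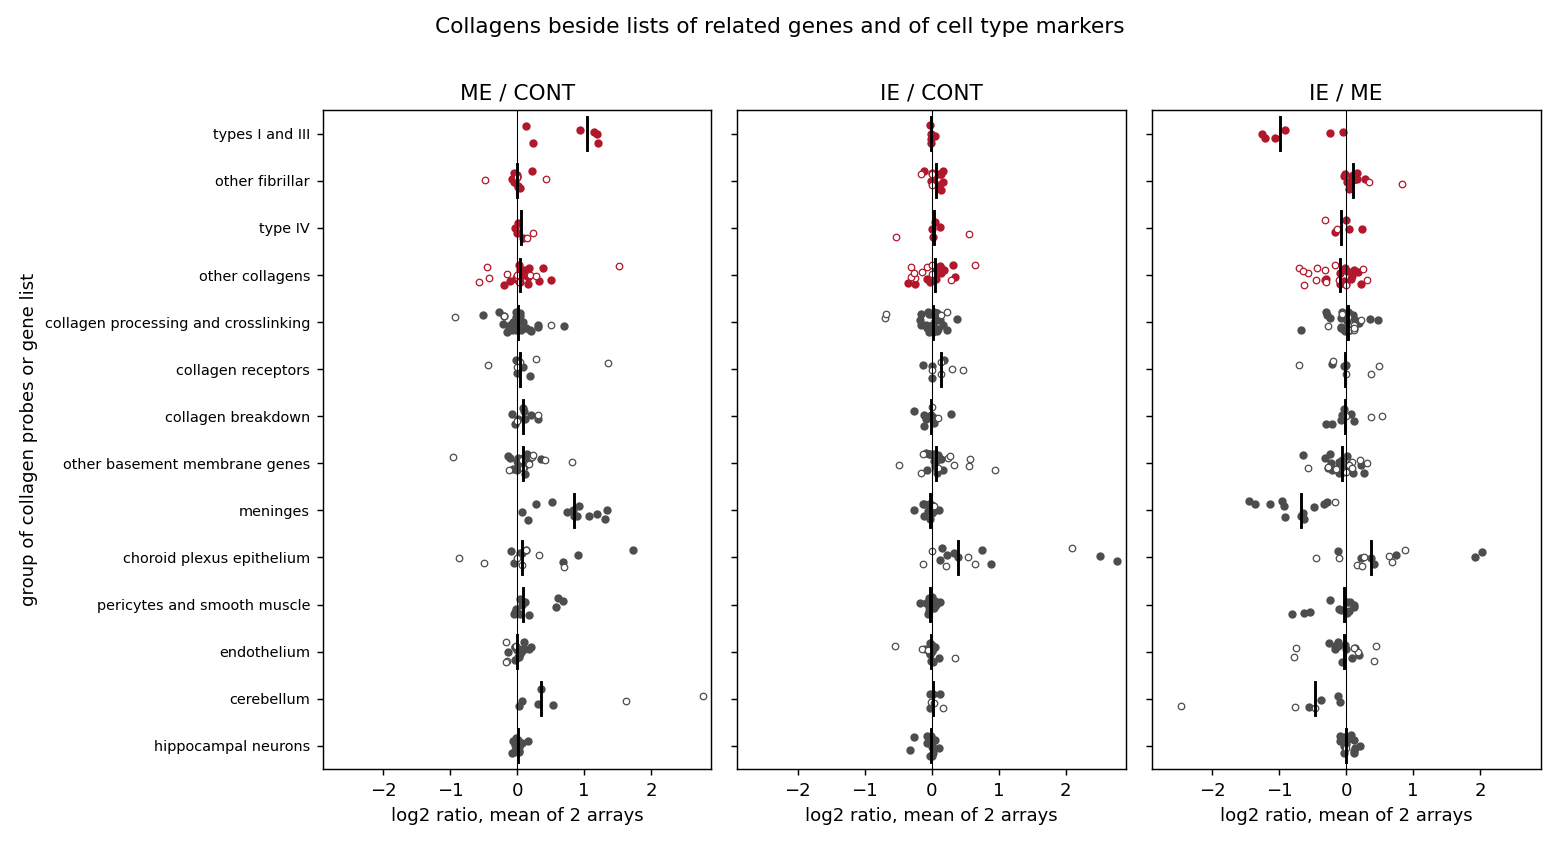
Mean log2 ratio of 2 arrays (x axis) of each probe in 4 groups of collagens (red) and in 10 lists of related genes and cell type markers (grey), for the 3 comparisons. Vertical bars are medians, open symbols are probes without all 4 readings well above background. The lists were chosen with earlier results of these data known. Types I and III (median 1.05) and the meningeal list (0.85) lie to the right in ME / CONT, at -0.01 and -0.03 in IE / CONT and to the left in IE / ME (-0.99 and -0.67), while other fibrillar collagens and type IV stay near 0.

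The promoters of 24 of the 32 genes are in the RefSeq table of GRCr8, those of Col1a1 and Col3a1 not among them. The start of the Col1a2 window is shown because Col1a2 was called at both probes, and the stretch between Col4a1 and Col4a2, which start on opposite strands, because these genes gave no call. Capitals mark 3 motifs on either strand, the TATA motif (TATAAA), the CAAT motif (CCAAT) and the GC box (GGGCGG).
Col1a2 (GRCr8, chr4:33518307-33518416, plus strand): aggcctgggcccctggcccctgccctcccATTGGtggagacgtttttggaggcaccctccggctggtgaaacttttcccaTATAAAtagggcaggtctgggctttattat
Between Col4a2 and Col4a1 (GRCr8, chr16:84885521-84885596, plus strand): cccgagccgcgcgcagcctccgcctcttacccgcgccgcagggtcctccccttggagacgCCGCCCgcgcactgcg
In the 250 bases before the start of Col1a2, the TATA motif and, on the other strand, the CAAT motif were each found 1 time, and the GC box was not found. The TATA motif lay 170 to 165 bases before the annotated start, and the CAAT motif 221 to 217 bases before it. The 76 bases between the type IV genes held the GC box on the other strand and neither of the other motifs. This stretch is shorter than the Col1a2 window, so the motifs found in them cannot be set against each other. Over 250 bases, the windows of Col4a1 and Col4a2 both held the CAAT motif and the GC box. Of all 33469 promoter windows of 250 bases, 12.9% held the TATA motif, 34.0% the CAAT motif and 30.5% the GC box on either strand, and among the 24 collagen genes these were 3, 7 and 14. A match of letters is a description of the window and not a binding site.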

How the data were processed

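Hippocampal RNA, pooled from 5 rats per group, was hybridized by the authors to 60-mer 2-colour rat arrays and read with Agilent Feature Extraction. Per the file headers, its version was 9.5.3.1 for the arrays against CONT and 11.0.1.1 for those of IE vs ME. The log10 ratio deposited by the authors is Cy5 over Cy3 after background subtraction and LOWESS dye normalization, the deposited p-value is that of the error model of the software, and the deposited signals are intensity values on a linear scale. The authors' value table, an alternative here, gives log10 of the 2 processed signals' quotient (equal for 100% of spots within 0.001), with array 2 of a pair reversed.

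Control features (1639) were left out of 6 arrays, as were outlier spots. Ratios were turned to exercise over CONT or IE over ME, converted to log2 and averaged over spots, with the median p. The limits of 1.5, 0.75 and 0.01 follow the study. The IE vs ME files hold no gene names, so probes were matched by probe name. Probes of lists were also matched through RefSeq accessions (10735 probes), and 12 collagen probes were matched this way. The ratio of each pair is dye-balanced, and arrays were not normalized to each other.

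The collagen genes, the lists of fibrillar and basement membrane collagens, processing, receptors, breakdown, other basement membrane genes, meninges, choroid plexus, pericytes and smooth muscle, endothelium, cerebellum and hippocampal neurons were chosen with earlier results of these data known. Named were collagen probes that were called, with a mean log2 ratio of 1 or more, past the ratio limits without p, all fibrillar and type IV collagens, collagens listed in the study's supplement, and called probes of the other lists. Other collagens and list members (among them Col18a1, Serpinh1, P4ha1, Lox, Nid2, Dcn and Lum) were named after their values were seen.

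Alternatives were no p threshold, 1.5-fold both ways, the mean of the pair, normexp (offset 50) with loess, loess without background subtraction, the value table, dim probes left out, outliers kept, genes for probes, each array alone, and a joint fit of 6 arrays. Python 3.11.15, numpy 2.4.6, pandas 2.3.3, R 4.3.3 and limma 3.58.1 were used. The code of the call rule was run on simulated pairs with planted changes past the ratio limits and the same noise for every probe. Such pairs hold no dim or dye-dependent probes, so they do not test the calls made here.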

Additional observations from a re-analysis of the deposited data

Results flagged for a closer look

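For 3 probes well above background in every reading against CONT, both ME arrays lay on one side of 0 and both IE arrays on the other, and this difference was not tested. Col1a1 (A_44_P238421) gave 1.23 and 1.16 with ME and values just below 0 with IE, a log2 difference of IE minus ME of -1.22. For Col5a2 (A_44_P392849) the difference was 0.15 and for Col11a1 (A_44_P385697) 0.083, both from ratios on ME arrays within 0.07 of 0. Groups of 2 arrays are too small for a check of single outlying arrays.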

How the results depend on the processing

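No paired analysis was possible because there was 1 pool for each group, and the pool numbers of the records were taken to name 2 arrays of the same RNA. Of the 8 calls of single probes, 47 of 48 values under another setting kept the direction and stayed past the limits used for that setting. Col1a2 (A_44_P458851) with ME dropped below the ratio limits after normexp and loess (0.53). Many of these values could not have differed. A call already requires each array to pass alone, and no collagen spot was an outlier. The value table is a quotient of the same processed signals. That table and the loess settings were judged by the ratio limits without p. Counted as genes, 2 were called with ME and 2 in IE vs ME in place of 4 probes in each, since the mean over 3 Col1a1 probes is below the limits. One array alone called 4 to 7 collagen probes with ME, 0 to 3 with IE and 6 on either array of IE vs ME. The higher counts came from the first array, which added Col8a2, Col9a1 and Col9a3 with ME and gave Col9a1, Col9a3 and Col23a1 with IE, each with the opposite sign on the second array. Fibrillar medians on one array alone were 0.013 to 0.13 with ME, -0.00083 to 0.058 with IE and -0.071 to 0.059 in IE vs ME. The type IV median with ME (0.05) was 0.010 with normexp and loess, 0.015 without background subtraction, 0.0031 over probes well above background, 0.076 over genes, 0.019 in the joint fit and 0.027 to 0.031 on single arrays, which gave -0.051 to 0.19 with IE and -0.42 to 0.29 in IE vs ME. The cause was not tested. Dim probes, where the correction of background sets the ratio, and 1 pool per group limit these values.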
